A study of Homo sapiens with 9 samples.

Results

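The BCL2 family decides whether the outer mitochondrial membrane stays closed during apoptosis. BH3-only proteins relay stress signals, the pore formers BAX and BAK1 open the membrane when activated, and survival proteins such as BCL-XL (gene BCL2L1) and MCL1 hold the other 2 classes in check. Hepatocytes and hepatoma cells are known to depend largely on BCL-XL and MCL1 for survival. The 10 genes followed here were the BH3-only genes BIK, BBC3, PMAIP1, BCL2L11, BAD and BID, the pore formers BAX and BAK1, and the survival genes BCL2L1 and MCL1. All probe sets whose platform annotation gave exactly 1 gene symbol, equal to 1 of the 10, were taken. This gave 29 probe sets of 9 genes among 54613 probe sets that were no control, and among 19775 genes. The 1 probe set that lists BBC3 also lists another symbol, so BBC3, which encodes PUMA, was not analysed here.

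RNA came from Huh7, a human cell line grown from a hepatocellular carcinoma, and was hybridised to Affymetrix U133 Plus 2 arrays, with 3 arrays per group and 9 in all. The groups were Huh7 given PGG (pentagalloyl glucose, a plant gallotannin) at 0.1 mg/mL for 48 h, Huh7 given the same dose for 6 h, and Huh7 given the solvent PBS. The titles of the PBS samples and the methods give 48 h, which is used here, whereas their descriptions give 0 h of treatment. No PBS array of 6 h was analysed, so PGG 6 h against PBS 48 h also differs in time in culture. PGG 48 h against PGG 6 h differs in both length of exposure and time in culture, which cannot be told apart. Values are log2 signals after RMA, and differences are given on this log2 scale with their standard error (SE), or as folds where stated. A probe set was called higher or lower when its limma adjusted p, over all 54613 probe sets, was under 0.05. The methods' stricter cut-offs, a q-value under 0.005 and a difference above 1.5, are called the study threshold and were applied to limma's adjusted p.

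Of 9 hepatocyte and hepatoma markers, 8 were measured, and their mean signals stood between the 83.5 and the 99.9 percentile of all probe sets. Markers of leukocytes, endothelium and fibroblasts stood between the 15.7 and the 78.6 percentile. Arrays of a group correlated at 0.993 or more across probe sets. The 3′ minus 5′ signal of the ACTB control probe sets, which grows when RNA is degraded or copied incompletely, was 2.95 ± 0.97 in PGG 48 h, 1.17 ± 0.05 in PGG 6 h and 1.35 ± 0.34 in PBS 48 h (SD, n = 3 each). The highest single value, 4.03, was that of PGG 48 h replicate 2. Members were therefore also fitted with this value as a covariate, an alternative chosen after seeing the control probe sets, and where a call against PBS was gained or lost the fit is given beside the member. All PGG 48 h arrays, at 2.14 to 4.03, lay above all PGG 6 h and PBS arrays, at 1.57 or below. The covariate thus goes together with the PGG 48 h group, and the fit cannot fully separate the 2. The GAPDH control probe sets gave 3′ minus 5′ values of 0.27, 1.83 and 0.39 in PGG 48 h replicates 1, 2 and 3. They gave 0.19 to 0.24 in PGG 6 h and 0.13 to 0.35 in PBS 48 h. By GAPDH, PGG 48 h replicate 2 stood apart, while replicates 1 and 3 lay in or near the PBS range. In cultured cells a lower signal can come from fewer cells of a kind or from less RNA per cell, and these cannot be told apart here.

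RefSeq promoter windows (GRCh38.p14, 250 bases before to 50 bases after a start site) were found for 8 of the 10 genes, BIK and MCL1 being the exceptions. The 3 windows printed belong to PMAIP1, BAX and BID, a BH3-only gene with opposite differences at 6 h and 48 h and a pore former and a BH3-only gene that were lower at 48 h. Capitals mark matches on either strand. In BAX and BID they mark CACGTG, the canonical E-box that MYC and MAX bind, and MYC is the gene on which the study centred. In PMAIP1 they mark TGACGT, the core of the cAMP response element bound by ATF and CREB factors, read here on the opposite strand as ACGTCA. This second motif was chosen after the sequence had been seen.
PMAIP1, chr18:59899746-59900045, plus strand: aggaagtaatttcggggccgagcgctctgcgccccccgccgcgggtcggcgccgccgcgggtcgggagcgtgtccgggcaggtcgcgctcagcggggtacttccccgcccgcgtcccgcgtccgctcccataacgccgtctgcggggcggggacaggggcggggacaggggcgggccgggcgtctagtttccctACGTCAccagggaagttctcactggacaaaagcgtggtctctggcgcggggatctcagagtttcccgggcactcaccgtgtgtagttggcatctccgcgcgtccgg
BAX, chr19:48954625-48954924, plus strand: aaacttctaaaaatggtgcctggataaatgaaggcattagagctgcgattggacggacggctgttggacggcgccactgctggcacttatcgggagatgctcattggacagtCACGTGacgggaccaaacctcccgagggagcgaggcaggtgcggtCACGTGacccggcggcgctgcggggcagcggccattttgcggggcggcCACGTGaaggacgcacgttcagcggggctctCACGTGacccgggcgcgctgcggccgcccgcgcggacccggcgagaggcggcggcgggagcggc
BID, chr22:17773934-17774233, minus strand: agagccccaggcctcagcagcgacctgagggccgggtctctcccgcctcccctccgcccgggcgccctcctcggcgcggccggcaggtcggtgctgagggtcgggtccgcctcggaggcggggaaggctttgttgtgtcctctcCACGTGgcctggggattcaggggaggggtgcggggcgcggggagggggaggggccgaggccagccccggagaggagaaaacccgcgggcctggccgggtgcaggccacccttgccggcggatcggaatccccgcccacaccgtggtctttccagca

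The BAX window held CACGTG 4 times, beginning 138, 93, 45 and 14 bases before the start site. Of all 35116 windows of this length, 7.26% held the motif at least once and 0.0142%, which is 5 windows, at least 4 times. BID held it in 2 overlapping windows of 5, of which 1 is printed, 106 bases before its start site, and BBC3 held it once. Windows of PMAIP1, BCL2L11, BAD, BAK1 and BCL2L1 held none. PMAIP1 held TGACGT once, 56 bases before its start site, and BAD held it once in each of its 2 windows, against 7.98% of all windows with at least 1 match. Another motif searched, GGGCGG, the GC box of SP1 factors, stood 4 times in the PMAIP1 window and 2 times in the BAX window, and 45% of all windows held it at least once. At least 2 matches stood in 26.7% of all windows and at least 4 in 9.06%. It also stood up to 4 times in BID windows, 3 times in the BCL2L11 window and 2 times in the BAK1 window. These matches describe letters in a window and no binding was measured.

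Of the 9 measured members, each by its brightest probe set on average, 8 were called against PBS at 48 h, beside 46.1% of all genes, and 4 at 6 h, beside 31%, BAD being the one called at neither time. In PGG 48 h against PBS 48 h, 12 of the 29 member probe sets were higher, 11 were lower and 6 were not called, so that 79.3% were called where 39% of all probe sets were (18.8% higher and 20.2% lower). Member probe sets are brighter than most, 26 of 29 having a mean above the median of all, and among probe sets above that median 61.2% were called. The median size of the difference was 0.85 over the members and 0.17 over all probe sets. Counted by gene, with the brightest probe set on average standing for each, 5 of 9 were higher and 3 lower. Of all genes 46.1% were called, 22.9% higher and 23.2% lower. The 3 PGG 48 h arrays did not overlap with the 3 PBS arrays in 23 of the 29 member probe sets, against 44.5% of all. In PGG 6 h against PBS 48 h, 7 probe sets were higher, 3 lower and 19 not called, that is 34.5% beside 24.6% of all probe sets (12.2% higher and 12.5% lower) and 41.1% of those above the median signal. By gene 2 of 9 were higher and 2 lower, beside 31% of all genes (15.5% higher and 15.5% lower), and 17 of the 29 probe sets did not overlap, against 37.5% of all. The median size of the difference at 6 h was 0.26 over the members and 0.12 over all. Past the study threshold were 8 member probe sets at 48 h, where 4.12% of all probe sets were, and 1 at 6 h, where 0.74% were. By gene 2 of 9 were past it at 48 h and 1 at 6 h, with no share over all genes computed. Both comparisons use the same PBS arrays.

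**Figure D1:**
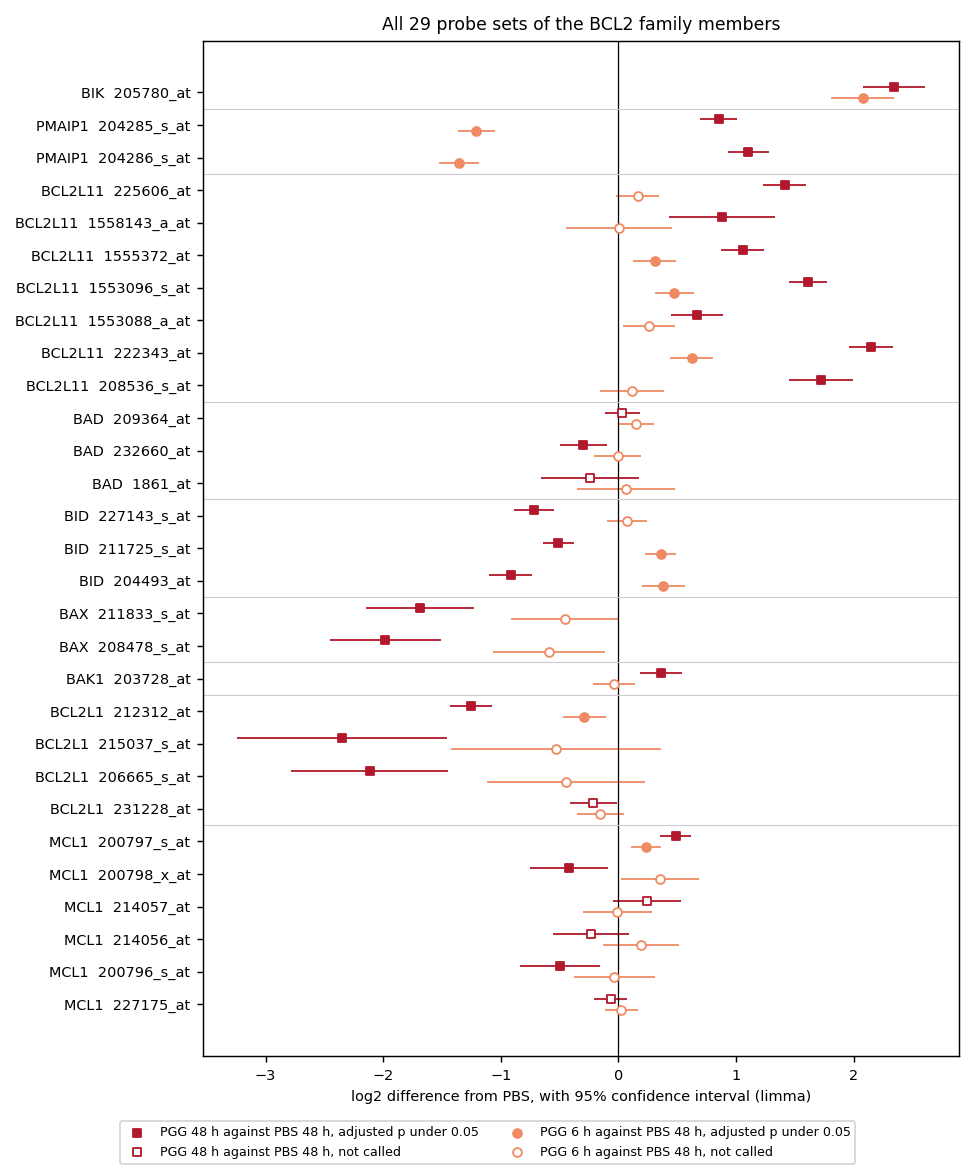
Log2 difference from PBS 48 h of each of the 29 member probe sets, in PGG 48 h (squares) and PGG 6 h (circles), with 95% confidence intervals from limma and filled symbols where the adjusted p was under 0.05. BIK and the BCL2L11 probe sets lie right of 0 at 48 h, the BAX and BID probe sets lie left of it, and the PMAIP1 probe sets lie on opposite sides at 6 h and 48 h.

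Among the BH3-only genes, BIK was higher at both times. BIK encodes a BH3-only protein that sits mainly on the endoplasmic reticulum. Its only probe set, 205780_at, read 8.42, 8.27 and 8.47 in PGG 48 h, 8.12, 8.12 and 8.12 in PGG 6 h, and 6.10, 5.74 and 6.29 in PBS 48 h. Neither PGG group overlapped with PBS. BIK was 5.07-fold higher at 48 h (difference 2.34, SE 0.12, limma adjusted p = 4.9e-08) and 4.22-fold higher at 6 h (2.08, SE 0.12, limma adjusted p = 6.4e-07). The step between the 2 PGG times was small, 0.27 for PGG 48 h against PGG 6 h (95% interval 0.00 to 0.53, limma adjusted p = 0.11). Limma called that step without PBS replicate 2 (adjusted p = 0.023) and when only the 2 PGG groups were fitted (0.017). BIK was the only member past the study threshold at 6 h. Its difference at 48 h was 2.51 with the ACTB covariate, no smaller than without it.

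PMAIP1, which encodes NOXA, a BH3-only protein that binds MCL1 above all, went opposite ways at the 2 times. Probe set 204285_s_at read 9.59, 9.44 and 9.40 in PGG 48 h, 7.37, 7.42 and 7.46 in PGG 6 h, and 8.69, 8.59 and 8.59 in PBS 48 h. The 3 groups were fully apart, with PGG 48 h highest and PGG 6 h lowest. It was 1.81-fold higher than PBS at 48 h (0.85, SE 0.07, limma adjusted p = 2.0e-06) and 2.31-fold lower at 6 h (-1.21, SE 0.07, limma adjusted p = 7.0e-07). PGG 48 h stood 4.17-fold above PGG 6 h (2.06, SE 0.07, limma adjusted p = 5.2e-09). The second probe set, 204286_s_at, followed the first across the 9 arrays (r = 0.994, a description) with differences of 1.11 at 48 h and -1.35 at 6 h. All 4 calls against PBS were kept with the ACTB covariate.

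BCL2L11, which encodes BIM, a BH3-only protein that can bind every survival protein of the family, was higher at 48 h in all 7 of its probe sets, by 0.67 to 2.15. Its brightest, 225606_at, read 9.07, 9.29 and 9.04 in PGG 48 h, 7.84, 7.89 and 7.93 in PGG 6 h, and 7.61, 7.79 and 7.76 in PBS 48 h. The PGG 48 h arrays lay above all others, 2.66-fold above PBS (1.41, SE 0.08, limma adjusted p = 1.3e-07), and PGG 6 h differed from PBS by 0.17, which was not called (limma adjusted p = 0.19). It was called with the ACTB covariate (0.19, adjusted p = 0.045), as was the mean over all 7 probe sets (0.28, 0.0024). The largest difference was that of 222343_at, which read 6.75, 6.85 and 7.0 in PGG 48 h, 5.21, 5.43 and 5.39 in PGG 6 h, and 4.71, 4.68 and 4.77 in PBS 48 h. For this probe set both PGG groups were called higher than PBS, 4.43-fold at 48 h (2.15, SE 0.08, limma adjusted p = 7.8e-09) and 1.54-fold at 6 h (0.62, SE 0.08, limma adjusted p = 0.00024). At 6 h 3 of the 7 were called, the others being 1553096_s_at at 0.48 and 1555372_at at 0.31. All 7 probe sets thus shared the rise at 48 h, and fewer were called at 6 h. Of them 208536_s_at was dim, averaging 4.91 in PGG 48 h and 3.19 in PBS, with a mean below the median of all probe sets. The call of 1555372_at was lost without PBS replicate 3 (0.23, limma adjusted p = 0.066), PGG 6 h replicate 2 (0.28, 0.072) or PGG 6 h replicate 3 (0.30, 0.064), and 1553088_a_at, at 0.26, was called without PGG 48 h replicate 1 (limma adjusted p = 0.038). The spread was widest in 1558143_a_at, which read 8.97, 7.89 and 8.60 in PGG 48 h, the low array being the one with the highest ACTB value. All 7 calls at 48 h were kept with the ACTB covariate, under which the difference of 1558143_a_at was 1.70 in place of 0.88.

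BAD showed little difference. BAD encodes a BH3-only protein that is held inactive by 14-3-3 proteins when phosphorylated. Probe set 209364_at read 6.32, 6.21 and 6.32 in PGG 48 h, 6.34, 6.46 and 6.41 in PGG 6 h, and 6.32, 6.2 and 6.23 in PBS 48 h. The differences from PBS were 0.03 at 48 h (95% interval -0.11 to 0.18) and 0.15 at 6 h (0.01 to 0.30), and neither was called by limma (adjusted p = 0.75 and 0.14). The dimmer 232660_at was lower at 48 h by a difference of -0.30 (limma adjusted p = 0.021). This call was lost without PBS replicate 3 (-0.24, limma adjusted p = 0.086), without PGG 48 h replicate 2 (-0.22, 0.072) and with the ACTB covariate (-0.12, 0.59). The third BAD probe set, 1861_at, was not called at either time.

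BID fell at 48 h and not at 6 h. BID encodes the BH3-only protein that caspase-8 cuts to link death receptors to mitochondria. Its brightest probe set, 227143_s_at, read 8.99, 9.16 and 8.92 in PGG 48 h, 9.73, 9.87 and 9.86 in PGG 6 h, and 9.79, 9.71 and 9.73 in PBS 48 h. PGG 48 h lay below the other groups, 1.65-fold below PBS (-0.72, SE 0.08, limma adjusted p = 1.6e-05), while PGG 6 h overlapped with PBS (0.08, limma adjusted p = 0.56). PGG 48 h against PGG 6 h differed by -0.80 (limma adjusted p = 8.2e-06). All 3 BID probe sets were lower at 48 h, by differences of -0.51 to -0.92. At 6 h the other 2 were higher than PBS, 211725_s_at by 0.36 (limma adjusted p = 0.00094) and 204493_at by 0.38 (0.0053), and the mean over all 3 probe sets was called higher too (0.27, 0.0036). The 3 calls at 48 h were kept with the ACTB covariate.

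**Figure D2:**
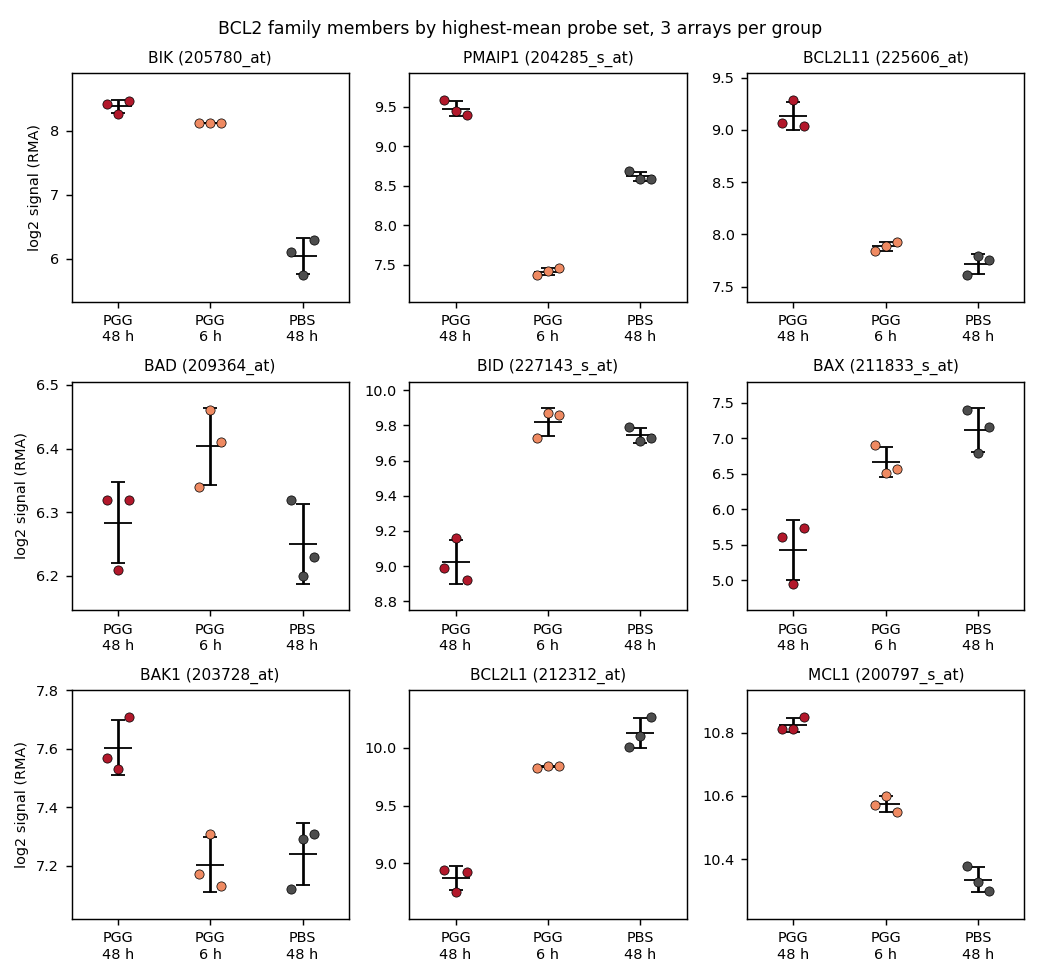
Log2 RMA signal of the 9 measured members, each by its brightest probe set on average, in PGG 48 h, PGG 6 h and PBS 48 h (points are arrays, bars are the mean and SD, n = 3, and each panel has its own axis that does not start at 0). BIK is high in both PGG groups, PMAIP1 is lowest in PGG 6 h, and BAX and BCL2L1 are lowest in PGG 48 h.

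The 2 pore formers differed in direction at 48 h. BAX, which moves from the cytosol to mitochondria when activated, read 5.61, 4.95 and 5.73 in PGG 48 h, 6.91, 6.51 and 6.57 in PGG 6 h, and 7.40, 6.79 and 7.16 in PBS 48 h by probe set 211833_s_at. PGG 48 h lay below both other groups, and PGG 6 h and PBS overlapped. BAX was 3.22-fold lower than PBS at 48 h (-1.69, SE 0.21, limma adjusted p = 5.1e-05) and 2.35-fold lower than in PGG 6 h (-1.23, SE 0.21, limma adjusted p = 0.00061). The other BAX probe set, 208478_s_at, was 3.95-fold lower than PBS at 48 h (-1.98, SE 0.21) and correlated with the first at 0.982 over the 9 arrays, a description. At 6 h the differences of -0.45 and -0.59 were not called (limma adjusted p = 0.16 and 0.072). The difference of 208478_s_at was called without PBS replicate 2 (-0.82, limma adjusted p = 0.012) and without PGG 48 h replicate 2 (-0.59, 0.039). The differences at 48 h were, with the ACTB covariate, -0.98 (limma adjusted p = 0.0071) and -1.25, still called, and at 6 h -0.53 and -0.67, both called, whereas PGG 48 h against PGG 6 h was no longer called by limma (-0.45 and -0.58, adjusted p = 0.22 and 0.11).

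BAK1, which sits in the mitochondrial membrane already before activation, read 7.57, 7.53 and 7.71 in PGG 48 h, 7.17, 7.31 and 7.13 in PGG 6 h, and 7.12, 7.29 and 7.31 in PBS 48 h by its only probe set, 203728_at. It was 1.29-fold higher at 48 h, without overlap (0.36, SE 0.08, limma adjusted p = 0.0040), and differed by -0.04 at 6 h (95% interval -0.22 to 0.14, limma adjusted p = 0.82). Limma no longer called the 48 h difference with the ACTB covariate (0.38, adjusted p = 0.068).

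Of the survival genes, BCL2L1 was lower at 48 h. Its main product BCL-XL blocks BAX and BAK1 and binds most BH3-only proteins. Probe set 212312_at read 8.94, 8.75 and 8.93 in PGG 48 h, 9.83, 9.84 and 9.84 in PGG 6 h, and 10.01, 10.10 and 10.27 in PBS 48 h. The 3 groups did not overlap, and PBS was highest. BCL2L1 was 2.38-fold lower at 48 h (-1.25, SE 0.08, limma adjusted p = 3.0e-07) and 1.22-fold lower at 6 h (-0.29, SE 0.08, limma adjusted p = 0.024). The call at 6 h was lost without PBS replicate 3 (-0.22, limma adjusted p = 0.091) and without any 1 of the PGG 6 h replicates (adjusted p = 0.066 to 0.069). The 48 h difference of this probe set was -1.15 with the ACTB covariate.

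The next BCL2L1 probe sets differed by more and with a wider spread. Probe set 206665_s_at read 6.11, 4.54 and 5.17 in PGG 48 h, 7.12, 6.84 and 6.87 in PGG 6 h, and 7.49, 7.13 and 7.55 in PBS 48 h (-2.12 at 48 h, SE 0.30, limma adjusted p = 0.00016). Probe set 215037_s_at read 6.36, 4.28 and 4.81 in PGG 48 h, 7.16, 6.90 and 6.85 in PGG 6 h, and 7.65, 7.24 and 7.61 in PBS 48 h (-2.35 at 48 h, SE 0.40, limma adjusted p = 0.00061). In both, the 3 PGG 48 h arrays stood in the reverse order of their ACTB values, which were 2.14, 4.03 and 2.67. With the ACTB covariate their differences at 48 h were -0.98 and -0.90, and the second was no longer called (limma adjusted p = 0.12). At 6 h neither was called, at -0.45 and -0.53. With the ACTB covariate limma called 206665_s_at at 6 h (-0.57, adjusted p = 0.021) and not 215037_s_at (-0.69, 0.052). In a fit of only PGG 6 h and PBS both were called (limma adjusted p = 0.029 and 0.015), and 215037_s_at was called without PGG 48 h replicate 1 (limma adjusted p = 0.031). Between the PGG times their differences of -1.67 and -1.82 were -0.40 and -0.21 with the covariate, no longer called (limma adjusted p = 0.35 and 0.78). The dimmest probe set, 231228_at, differed by -0.21 at 48 h and was called only without PBS replicate 1 (-0.29, limma adjusted p = 0.025) among the fits that left out an array.

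**Figure D3:**
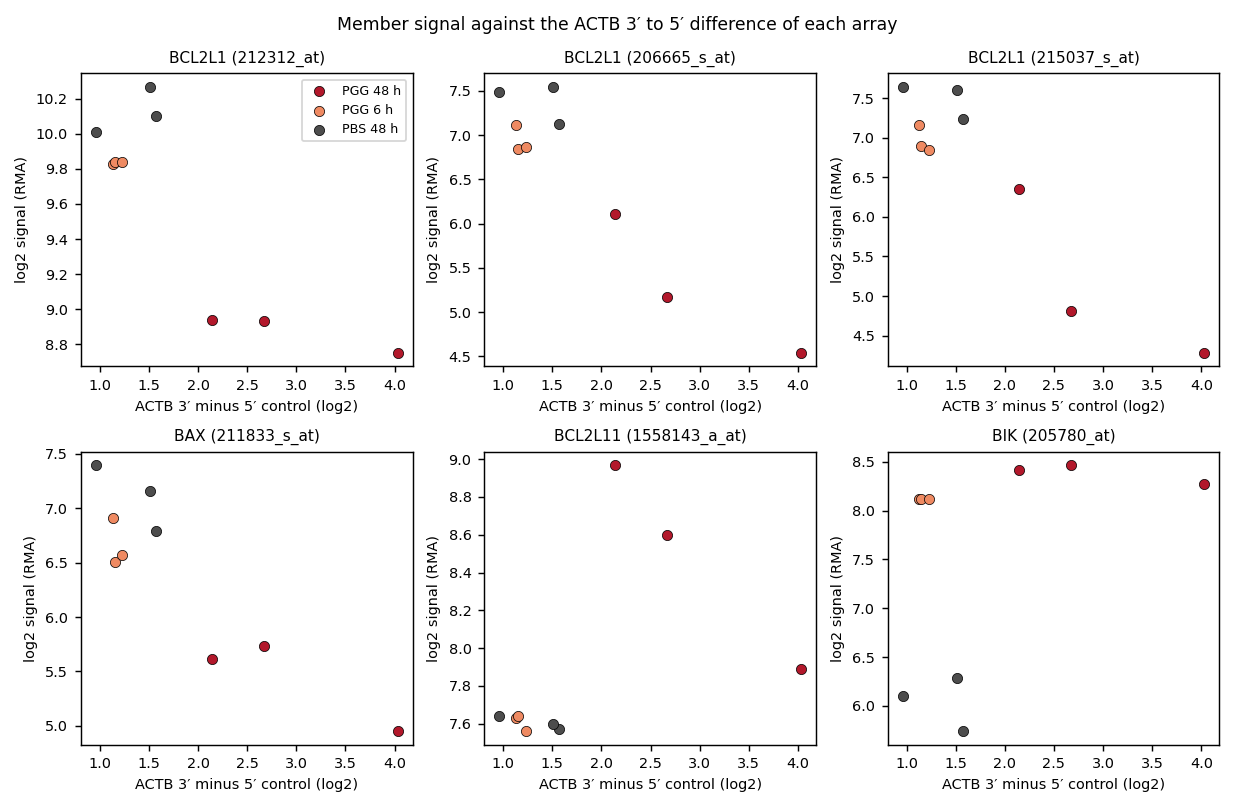
Log2 RMA signal of 6 member probe sets (vertical axes) against the ACTB 3′ minus 5′ difference of the same array (horizontal axes), with 1 point per array for PGG 48 h, PGG 6 h and PBS 48 h. The PGG 48 h arrays lie between 2.14 and 4.03 and the other 6 at 1.57 or below, and the BCL2L1 probe sets 206665_s_at and 215037_s_at go down along the PGG 48 h points while BIK stays between 8.27 and 8.47.

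MCL1, the short-lived survival protein that NOXA binds, had 6 probe sets that did not share a direction. The brightest, 200797_s_at, read 10.81, 10.81 and 10.85 in PGG 48 h, 10.57, 10.60 and 10.55 in PGG 6 h, and 10.38, 10.33 and 10.30 in PBS 48 h. The groups were apart, with PGG 48 h highest, though the differences were small, 1.40-fold at 48 h (0.49, SE 0.06, limma adjusted p = 3.9e-05) and 1.18-fold at 6 h (0.24, SE 0.06, limma adjusted p = 0.011). By contrast 200798_x_at read 8.90, 8.30 and 8.73 in PGG 48 h, 9.44, 9.39 and 9.42 in PGG 6 h, and 9.33, 8.86 and 9.0 in PBS 48 h. Here PGG 48 h overlapped with PBS and was lower by a difference of -0.42 (limma adjusted p = 0.047), a call that held without PBS replicate 2 or PGG 48 h replicate 1 and was lost without any other single array (-0.25 to -0.46, adjusted p = 0.068 to 0.17). At 6 h its 0.35 was not called, but was called without PBS replicate 1 (0.49, limma adjusted p = 0.040) or PGG 48 h replicate 2 (0.35, 0.039), with the ACTB covariate (0.29, 0.015), with array weights (0.41, 0.014) and with the replicate block (0.35, 0.040). The dim 200796_s_at was also lower at 48 h, by a difference of -0.50 (limma adjusted p = 0.025). That call was lost without PBS replicate 1 (-0.38), PGG 48 h replicate 2 (-0.34) or PGG 48 h replicate 3 (-0.47), so that both lower calls of MCL1 against PBS could be lost by leaving out 1 array. The other 3 probe sets were not called against PBS, though without PBS replicate 1 limma called 214057_at at 48 h (0.40, adjusted p = 0.016) and 214056_at at 6 h (0.41, 0.0022). With the ACTB covariate 200798_x_at and 200796_s_at were on the other side of 0 at 48 h and uncalled, at 0.15 and 0.07. The mean over all 6 MCL1 probe sets differed from PBS by -0.08 at 48 h and 0.13 at 6 h, neither called, so the direction of MCL1 depends on which probe set stands for it. Across the 9 arrays the other 5 correlated with the brightest at -0.65 to 0.55, a description over arrays that share the same 3 groups.

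**Figure D4:**
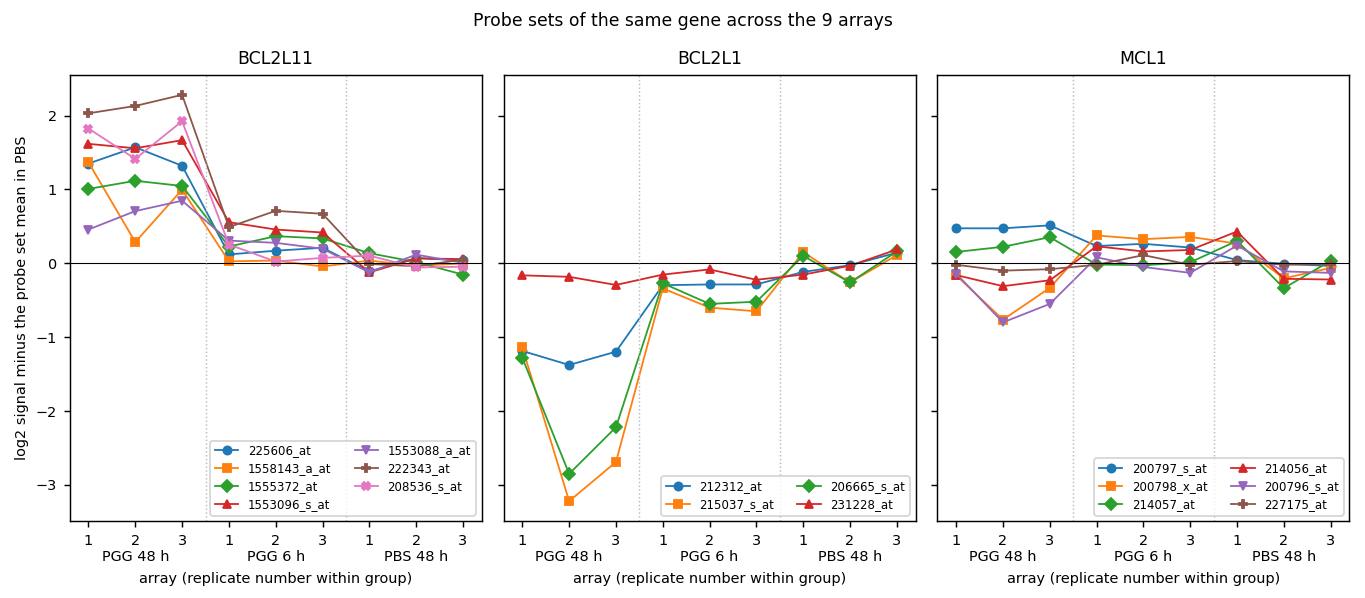
Log2 signal minus the probe set's mean in PBS (vertical axis) in each of the 9 arrays, in the order PGG 48 h, PGG 6 h and PBS 48 h, for the probe sets of BCL2L11, BCL2L1 and MCL1. All 7 BCL2L11 lines lie above 0 in PGG 48 h, the BCL2L1 lines lie below 0 there by differing amounts, and the MCL1 lines go to both sides.

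The PGG times were also set against each other. In PGG 48 h against PGG 6 h, 11 member probe sets were higher, 12 lower and 6 not called, 79.3% beside 36.4% of all probe sets (18% higher and 18.4% lower) and 58.7% of those above the median signal. By gene 4 of 9 were higher and 3 lower, where 44.4% of all genes were called (22.4% higher and 22% lower). Past the study threshold were 6 member probe sets, against 3.04% of all, and 26 of the 29 did not overlap, against 44.8% of all. By gene 1 of 9 was past the study threshold, again with no share over all genes computed. The genes that were not called were BIK and BAD. With the ACTB covariate 8 member probe sets were higher and 4 lower between the PGG times. Of all 54613 probe sets that fit called 15088 there, 7566 of them higher, where the fit without the covariate called 19887. Against PBS, the methods' t-test with Benjamini-Hochberg adjustment no longer called BCL2L1 215037_s_at (adjusted p = 0.069), BCL2L11 1558143_a_at (0.13), BAD 232660_at (0.12), MCL1 200798_x_at (0.27) and MCL1 200796_s_at (0.21) at 48 h. At 6 h it no longer called BCL2L1 212312_at (adjusted p = 0.08), BCL2L11 1555372_at (0.11) and BID 204493_at (0.052). PGG 48 h replicate 2 was the lowest of its group in 17 of 29 member probe sets (58.6%) and in 29.4% of all probe sets, and PBS replicate 2 was lowest in 14 of 29 (48.3%) and in 25.8% of all. The part of the ACTB difference in the member results beyond the covariate fits was not tested.

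The genes whose pattern over the 9 arrays was most like that of BIK, among 7851 genes with a mean above 7, were ZNF275 (r = 0.992), RIOK2 (r = 0.991) and POLG (r = 0.990). RIOK2 differed from PBS by 1.37 at 48 h and 1.21 at 6 h. Those most like BAX were PRMT1 (r = 0.984), SDAD1 (r = 0.978) and CBX5 (r = 0.973), and PRMT1 differed from PBS by -1.85 at 48 h and -0.52 at 6 h. These correlations are over arrays of only 3 groups and are descriptions.

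The remaining BCL2 family genes, 13 listed and all measured, showed 6 higher and 0 lower at 48 h (limma, adjusted p under 0.05) and 4 higher and 3 lower at 6 h. The largest were BNIP3L and BNIP3, hypoxia-responsive relatives that also serve as receptors for mitophagy. BNIP3L averaged 12.19 in PGG 48 h, 10.69 in PGG 6 h and 9.76 in PBS, and BNIP3 averaged 12.22 in PGG 48 h, 10.69 in PGG 6 h and 9.95 in PBS. The differences from PBS were 2.43 and 0.93 for BNIP3L and 2.27 and 0.74 for BNIP3, at 48 h and 6 h. BCL2L14 was higher at 48 h (0.76), and BOK, a BAX-like gene, was higher at both times (0.73 and 0.52). BCL2L12 was higher at 6 h (0.96), where the BH3-only gene BMF (-0.80), the survival gene BCL2L2 (-0.36) and BCL2L13 (-0.23) were lower. BCL2L2 was higher than PBS at 48 h (0.72). BCL2 itself, picked after its values were seen, differed by 0.03 and 0.08 and was not called.

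Downstream of the pore, 19 of 22 listed genes of the mitochondrial death machinery were measured, 7 higher and 5 lower at 48 h, 9 higher and 2 lower at 6 h. CASP9, the initiator caspase of the apoptosome, was higher at both times (1.74 and 0.84), as was the outer membrane channel VDAC1 (0.86 and 0.80), and DIABLO, which neutralises caspase inhibitors, was higher at 48 h (0.89). DFFA, the inhibitor of the nuclease that cuts DNA in apoptosis, was lower at both times (-1.76 and -0.70), and the caspase CASP6 was lower at 48 h (-1.38). PARP1, a caspase substrate, was lower at 48 h (-1.29) and higher at 6 h (0.38). CASP2 (0.91) and BIRC5 (0.88) were higher at 6 h, where CYCS, cytochrome c, was lower by a small difference (-0.19).

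Of 14 listed genes of the death receptor pathway, which reaches mitochondria through BID, 13 were measured, 5 higher and 5 lower at 48 h and 2 higher and 4 lower at 6 h. The ligand TNFSF10, known as TRAIL, was higher at both times (1.80 and 0.62), and its receptor TNFRSF10B (0.61) and decoy receptor TNFRSF10D (0.74) were higher at 48 h. CFLAR, which blocks caspase-8 at the receptor, was higher at both times (0.60 and 0.78). TNFRSF1A (-0.93 and -0.53) and CASP8 (-0.53 and -0.61) were lower at both times, the adaptor FADD was lower at 48 h (-0.59), and the TRAIL receptor TNFRSF10A was lower at both times (-0.41 and -1.14).

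Genes known to regulate the members, 16 of 17 measured, numbered 8 higher and 5 lower at 48 h and 1 higher and 8 lower at 6 h. DDIT3, the stress factor CHOP, averaged 10.26 in PGG 48 h, 7.65 in PGG 6 h and 8.11 in PBS, a difference of 2.15 at 48 h and of -0.47 at 6 h. ATF3 (1.33 and -0.52) and FOXO3 (0.66 and -0.64) were likewise higher at 48 h and lower at 6 h. FOXO1, a known activator of BCL2L11, was higher at 48 h (1.03). MYC was lower at both times (-1.86 and -1.79). YWHAZ, a 14-3-3 protein (-0.69), and HIF1A (-0.42) were lower at 48 h. MDM2 was lower at both times (-0.35 and -0.76). E2F1 was higher at both times (0.46 and 0.31, limma adjusted p = 0.0034 and 0.048). Over all genes 46.1% were called at 48 h and 31% at 6 h, beside which the counts of the 4 lists are to be read. With the ACTB covariate, 6 genes of the remaining BCL2 family and 14 mitochondrial genes were called at 48 h. So were 7 death receptor genes and 10 regulators. Of all 54613 probe sets the covariate fit called 16461 at 48 h, where the fit without it called 21323, and no share over all genes was computed for it. The median difference was 0.18 at 48 h and 0.08 at 6 h for the remaining BCL2 family, 0.04 and 0.20 for the mitochondrial genes, -0.01 and 0.02 for the death receptor genes, and 0.25 and -0.20 for the regulators. Over all genes it was -0.02 and 0.01, and over the 9 members 0.36 and 0.08. Over the 29 member probe sets it was -0.07 and 0.07.

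**Figure D5:**
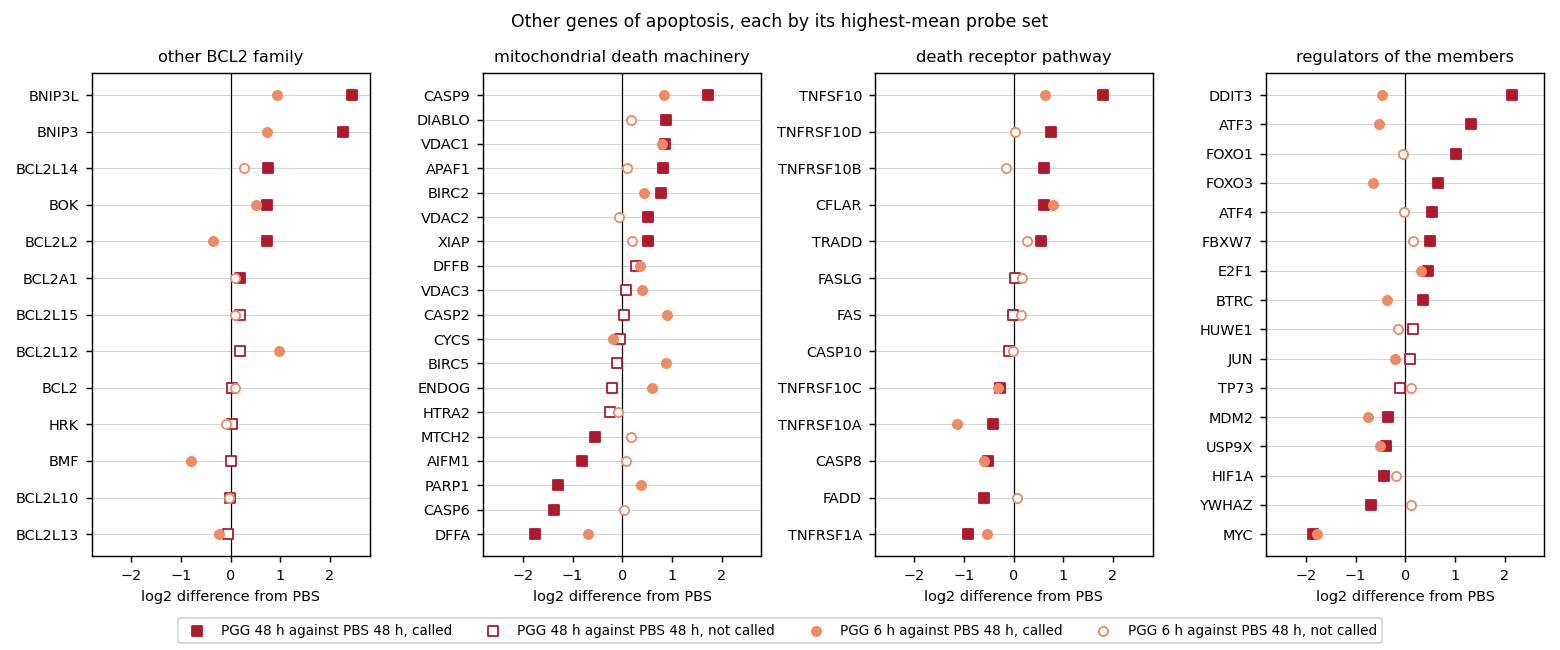
Log2 difference from PBS 48 h of each measured gene of the 4 lists, by its brightest probe set on average, in PGG 48 h (squares) and PGG 6 h (circles), filled where the limma adjusted p was under 0.05. BNIP3L and BNIP3, CASP9, TNFSF10 and DDIT3 lie furthest right in their panels at 48 h, and DFFA, TNFRSF1A and MYC furthest left.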

How the data were processed

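Huh7 RNA was measured on 9 Affymetrix U133 Plus 2 arrays. Per the labels and the methods, the authors normalized them with RMA (Affymetrix Expression Console, version not stated) and deposited log2 values of probe sets. RMA places all arrays on 1 distribution, so only relative changes can be read. Groups came from the sample titles. Of 54675 probe sets, 62 controls were left out, 41091 of the rest carried 1 gene symbol, 1801 several and 11721 none. For each gene the probe set of highest average signal was used.

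Differences were computed with limma 3.58.1 in R 4.3.3 (lmFit with 1 mean per group over all 9 arrays, eBayes, Benjamini-Hochberg adjustment over 54613 probe sets). The study applied its cut-offs of 0.005 and 1.5 to q-values of a t-test. The steps were tested on simulated data. From each of the 4 further gene lists, up to 3 genes higher and 3 lower per comparison with PBS were named. For BIK and BAX the 3 genes with the highest Pearson correlation were named. The members and lists were chosen with earlier results of these data known. Other scalings, filters, variance models, tests, array weights and left-out arrays were tried. Arrays have no counts, so their number limits the precision.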

Additional observations from a re-analysis of the deposited data

Results flagged for a closer look

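For 7 of the 9 measured genes the difference from PBS was not the same at the 2 PGG times, by the limma test of PGG 48 h against PGG 6 h on the brightest probe set of each. Of all genes 44.4% were called in that test, as were 58.7% of the probe sets above the median signal. The values of that test were 2.06 for PMAIP1, 1.25 for BCL2L11, 0.40 for BAK1 and 0.25 for MCL1, all higher at 48 h. They were -0.80 for BID, -1.23 for BAX and -0.96 for BCL2L1, all lower at 48 h. Of these genes, PMAIP1 was called in opposite directions against PBS at 48 h and 6 h. So were the dimmer BID probe sets 211725_s_at (-0.51 and 0.36) and 204493_at (-0.92 and 0.38), while the brightest BID probe set was not called at 6 h. The direction of MCL1 depended on the probe set. In the same limma test 200798_x_at (-0.77, adjusted p = 0.0017), 200796_s_at (-0.46, 0.037) and 214056_at (-0.42, 0.043) were called lower. MCL1 214057_at (0.25) and 227175_at (-0.09) were not called. Those lower calls of MCL1 were lost with the ACTB covariate (limma adjusted p = 0.52, 0.52 and 0.83). The call of 214056_at was also lost without any 1 of the PGG arrays (limma adjusted p = 0.063 to 0.12). That of 200796_s_at was also lost without any 1 PGG 6 h array and without PGG 48 h replicate 2 or 3 (limma adjusted p = 0.058 to 0.13). The call of 200798_x_at was kept whichever array was left out. Under the ACTB covariate limma no longer called the tests of BAK1 (0.42, adjusted p = 0.065) and MCL1 (0.28, 0.072), whose differences were as large as without it, nor that of BAX, whose difference was smaller (-0.45, 0.22). Single outlying arrays were not searched for, since a group holds only 3.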

How the results depend on the processing

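Of 1584 member differences recomputed under the alternatives, 1456 kept their direction and their side of the threshold, 68 lost their call, 32 gained one and 28 changed sign. The counts of member probe sets changed by over 1.5 times in few settings. Lower at 6 h were 5 instead of 3 with only the 2 groups compared and with the replicate block, and 6 with the ACTB covariate. Of all probe sets these fits called 14555, 13239 and 14994 at 6 h in either direction, where the main fit called 13445. Under the methods' t-test, lower at 48 h were 7 instead of 11, past the study threshold 4 instead of 8 at 48 h, and 3 instead of 6 for PGG 48 h against PGG 6 h. Of all probe sets this t-test called 15224 at 48 h, where the main fit called 21323. Between the PGG times it called 15913, where the main fit called 19887. Shares past the study threshold over all probe sets were not computed for the alternatives. Under the ACTB covariate, lower at 48 h were 7, past the study threshold 5 at 48 h, lower in PGG 48 h against PGG 6 h 4 instead of 12, and death receptor genes called there 4 instead of 8. Of all probe sets the covariate fit called 16461 at 48 h and 15088 between the PGG times. Leaving out an array gave 3 to 7 past the study threshold for PGG 48 h against PGG 6 h, with 3 without PGG 48 h replicate 3 or PGG 6 h replicate 1. The cause was not tested.

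Sign changes were confined to differences that were not called in the alternative. With the mean of all probe sets of a gene, MCL1 was -0.081 at 48 h and -0.21 in PGG 48 h against PGG 6 h, and BAD -0.17 at 48 h. Under the ACTB covariate at 48 h, BAD 1861_at was 0.46, MCL1 200798_x_at 0.15, 214056_at 0.062, 200796_s_at 0.066 and 227175_at 0.0011. At 6 h, BAD 1861_at was -0.011 and BCL2L11 1558143_a_at -0.084, and in PGG 48 h against PGG 6 h, BAD 209364_at was 0.012, 1861_at 0.48 and MCL1 200796_s_at 0.16. At 6 h, quantile normalization gave 0.0052 for BAD 232660_at and 0.017 for MCL1 214057_at, and array weights 0.063 for 214057_at and 0.011 for 200796_s_at. Leaving out an array gave, at 6 h, -0.18 to 0.14 for 214057_at, -0.098 to 0.087 for 200796_s_at, -0.02 to 0.045 for 227175_at, -0.047 to 0.048 for BAD 232660_at and -0.01 to 0.032 for BCL2L11 1558143_a_at, and at 48 h -0.42 to 0.04 for BAD 1861_at.

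Arrays with the same replicate number deviated together with r of -0.09 to 0.16 over 9 pairs, so the numbers were not taken as pairs. The replicate block left the counts at 48 h at 12 higher and 11 lower, and at 6 h called BAX 211833_s_at (limma adjusted p = 0.022), BAX 208478_s_at (0.013) and MCL1 200798_x_at (0.040). Signal over background limits the 3 member probe sets below the median signal, BCL2L11 208536_s_at, MCL1 200796_s_at and MCL1 227175_at.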
